A study of Mus musculus with 6 samples.

Results

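Epidermal growth factor (EGF) family ligands and ERBB receptors were followed across 3 mouse pancreatic ductal adenocarcinoma cell lines. The members were the rows of the expression table with 9 listed symbols, out of 24421 symbols in all. They comprised 6 ligand genes (Areg, Ereg, Hbegf, Tgfa, Btc and Epgn) and 3 receptor genes (Egfr, Erbb2 and Erbb3), and all 9 symbols were in the table. The lines are named 2838c3, 6419c5 and 6499c4, and each was given either the solvent DMSO (vehicle) or 250 nM of G-1, a small molecule that activates the membrane oestrogen receptor GPER, over 16 hours. Messenger RNA was measured by RNA sequencing in 1 library per line and treatment, 6 in all, so each treatment group held 3 libraries and each line 2. The labels name no genotype, driver mutation or clone for the lines, and do not say whether cultures were pooled. The series asks what G-1 does to gene expression in these tumour cells.

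EGF family ligands are made as membrane-anchored precursors, and metalloproteases of the ADAM family cut them free. The released ligand binds a receptor on the same or a neighbouring cell, the receptors pair, and their kinase domains pass the signal to MAP kinase and other pathways. EGFR binds Areg, Ereg, Hbegf, Tgfa, Btc and Epgn products, while ERBB2 has no known ligand and acts as a partner, and ERBB3 binds neuregulins but has a weak kinase.

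Reads in genes ranged from 5463530 to 8902026 per library. Where a gene has no reads, up to 3 reads cannot be told from 0, or 0.337 to 0.549 RPM (reads scaled to the library's total in genes) over the libraries. Keratin genes of duct epithelium (Krt7, Krt8, Krt18, Krt19) and Cdh1 were abundant in every library, with the 8 epithelial markers summing to 3534 to 6102 FPKM (a read level divided by gene length and library scale). Epcam was low, at 0.284 to 5.81 FPKM, and so was the duct factor Sox9, at 0.602 to 2.73, so the keratins carried most of the sum. Fibroblast markers summed to 0.416 to 0.99 FPKM and endothelial markers to 0.0665 to 1.82 FPKM. Leukocyte markers summed to 0.788 to 3.35 FPKM, with Cd68 at 0.788 to 3.20. What these low levels contribute to the results was not tested. Of 6 acinar markers 5 were at 0 everywhere, and Cela1 was at 0.166 to 7.31 FPKM. The fibroblast markers Col1a2, Dcn and Lum were at 0 in every library.

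Areg, Ereg, Epgn and Btc lie in 1 stretch of mouse chromosome 5 (GRCm38, GENCODE M21). Epgn spans 91027464 to 91035215, Ereg 91074622 to 91093646 and Areg 91139599 to 91148432 on the plus strand, and Btc spans 91357261 to 91402994 on the minus strand. No other protein-coding gene is annotated between them. The antisense gene Gm19610 overlaps the start of Ereg, and since strandedness is not stated its reads cannot be told apart from those of Ereg. Tgfa is on chromosome 6 (86195223 to 86275719), Egfr (16752203 to 16918158) and Erbb2 (98412470 to 98437716) on chromosome 11, and Erbb3 on chromosome 10 (128567523 to 128589652). These places come from the named annotation, since the sources used here name no build for the deposited values.

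The promoters of Areg and Btc are shown because both genes lie in this stretch and were higher under G-1 in all 3 lines, while their orders across the lines differed. Ereg also lies there and was higher in all 3 lines, but had no promoter entry. That direction held for 15.4% of the genes tested, and no member passed the threshold for G-1 in the limma fit. The sequences are the 250 bases before the annotated start, from RefSeq on GRCm38.p6: chr5:91139349-91139598 on the plus strand for Areg and chr5:91402995-91403244 on the minus strand for Btc. Capitals mark TGACG on either strand, the core of the cAMP response element (CRE), which is bound by CREB family factors.
Areg: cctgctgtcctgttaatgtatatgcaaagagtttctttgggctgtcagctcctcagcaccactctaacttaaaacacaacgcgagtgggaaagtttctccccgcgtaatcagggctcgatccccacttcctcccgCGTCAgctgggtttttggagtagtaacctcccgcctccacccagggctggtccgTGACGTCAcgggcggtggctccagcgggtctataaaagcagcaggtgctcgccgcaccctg
Btc: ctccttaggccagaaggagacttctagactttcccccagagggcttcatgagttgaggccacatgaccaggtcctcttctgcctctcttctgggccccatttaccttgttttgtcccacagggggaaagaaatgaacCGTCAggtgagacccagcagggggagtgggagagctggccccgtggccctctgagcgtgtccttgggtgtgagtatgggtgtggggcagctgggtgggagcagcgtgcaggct
The full palindromic CRE, TGACGTCA, was found in the Areg promoter at bases -61 to -54 before the start, and was in 1.55% of 32851 mouse promoter windows of the same length. It overlaps 2 matches to TGACG by construction, and 1 more match lies at -115 to -111. Btc held 1 match to TGACG, at -113 to -109, and no TGACGTCA. TGACG on either strand was in 17.8% of all windows. Of the 9 members, 6 had a promoter entry (Areg, Tgfa, Btc, Epgn, Egfr and Erbb2), and the full CRE was found in that of Areg alone. Epgn and Erbb2 also held 1 TGACG each, while Tgfa and Egfr held none. Other motifs were searched too, on either strand. GCGTG (XRE core, in 28.2% of all windows) was in Btc, at -59 to -55 and -11 to -7, and in Tgfa. GGGCGG (GC box, 32.7%) was in Areg, Tgfa and Egfr. TGANTCA (AP-1, N any base, 6.75%) was in none of these promoters. Such matches describe the letters only.

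Hbegf and Areg were the most abundant ligands in 2838c3 and 6419c5, and Epgn was close to silent in all 3 lines. In 6499c4 Btc stood with them, above Areg under vehicle (36.8 against 32.2 FPKM) and just above Hbegf under G-1 (41.2 against 40.9). Averaged over the 6 libraries, Hbegf was at 61.4 FPKM and Areg at 56.3, higher than 87.3% and 85.9% of the 10748 genes that averaged 1 FPKM or more, to which the tests were limited. Ereg followed at 33.4, Btc at 21.1 and Tgfa at 19.3 FPKM. Among the receptors, Erbb2 was at 14.5, Egfr at 5.36 and Erbb3 at 1.63 FPKM on average. Since FPKM is per length, these levels can be set beside each other within the limits of the gene lengths used. In all, 8 members passed the level filter, and Epgn (0.0793 FPKM on average) did not. Epgn had 7 reads in all, 4 of them in the vehicle library of 6499c4, 2 in the G-1 library of 2838c3 and 1 in the vehicle library of 6419c5, and no comparison was made on it.

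**Figure D1:**
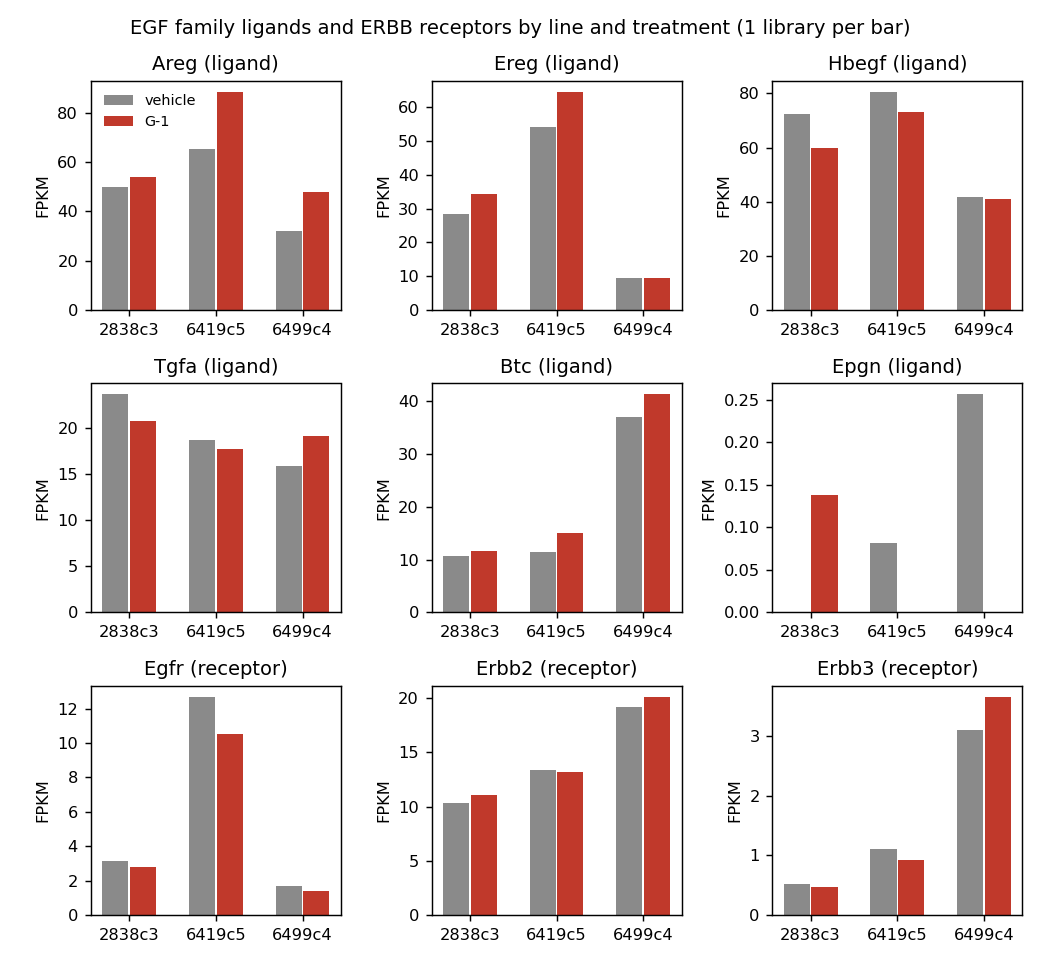
FPKM (vertical axes, each from 0) of the 9 members in the 3 lines, with 1 bar per library, grey for vehicle and red for G-1. Areg, Ereg, Hbegf and Egfr stand highest in 6419c5, and Btc, Erbb2 and Erbb3 in 6499c4.

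The members followed different orders across the lines. Areg, Ereg, Hbegf and Egfr were highest in 6419c5 and lowest in 6499c4, and Btc, Erbb2 and Erbb3 were highest in 6499c4 and lowest in 2838c3. With cell line and treatment in 1 limma fit of log2(FPKM + 1), 4 of the 8 members differed between 6419c5 and 2838c3, against 51.5% of all genes tested (adjusted p under 0.05). All 4 were higher in 6419c5 and 0 lower, against 26.2% and 25.3% of genes, and limma-voom on reads called 7, against 56%. Between 6499c4 and 2838c3 it was 7 of 8, against 55.6%, with 3 higher and 4 lower in 6499c4 (26.6% and 28.9% of genes). Between 6499c4 and 6419c5 it was also 7 of 8, against 45%, with 3 higher and 4 lower (21.3% and 23.7%). At least 1 pair was called for 7 members, against 75.4% of genes. In each of the 3 pairs, 4 members (Areg, Ereg, Egfr and Erbb2) passed, against 16.4% of genes. No 2 lines overlapped for 6 of the 8 (all but Tgfa and Btc), as for 47.2% of genes. The lines are shared between these pairs, so the counts are not independent. In bulk RNA, fewer expressing cells and less RNA per cell cannot be told apart. The median range of line means was 1.24 on the log2 scale over the 8 members and 0.56 over all genes tested. Each line has 2 libraries that differ in treatment, and nothing in the labels says that they are separate cultures, so these p-values measure the spread left between libraries after a common treatment difference.

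Ereg, which encodes epiregulin, spread most among the ligands. Its level was 28.5 (vehicle) and 34.5 (G-1) FPKM in 2838c3, 54.1 and 64.5 in 6419c5, with 9.43 and 9.47 in 6499c4. No library of one line overlapped with another line. The log2 difference was 0.89 between 6419c5 and 2838c3 (SE 0.10, limma adjusted p = 0.00029), -1.63 between 6499c4 and 2838c3 (SE 0.10, adjusted p = 1.52e-05) and -2.52 between 6499c4 and 6419c5 (SE 0.10, adjusted p = 3.47e-06). Its range of line means exceeded that of 97.1% of genes tested.

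Areg, which encodes amphiregulin, followed the same order with a smaller range. It was at 49.9 and 53.9 FPKM in 2838c3, 65.5 and 88.5 in 6419c5, with 32.2 and 47.9 in 6499c4 (vehicle and G-1). The lines did not overlap, but the G-1 library of 6499c4 came close to the vehicle library of 2838c3. Areg was 0.55 higher in 6419c5 than in 2838c3 on the log2 scale (SE 0.11, limma adjusted p = 0.00513) and 0.94 lower in 6499c4 than in 6419c5 (log2 difference -0.94, adjusted p = 0.000498). The difference of -0.39 between 6499c4 and 2838c3 (adjusted p = 0.0191) was -0.20 without the vehicle library of 2838c3 (adjusted p = 0.196) and -0.25 without the vehicle library of 6499c4 (0.145), and corrected for GC content and gene length it was -0.66 (0.00185). The uncorrected difference also did not pass without the level filter (0.0589), without a variance trend (0.0538) or without treatment as covariate (0.124). Between 6419c5 and 2838c3 that correction gave 0.33 (0.0282), and leaving out the G-1 library of 2838c3 gave 0.35 (0.0431). Without the G-1 library of 6419c5 the difference between 6419c5 and 2838c3 was 0.50 and did not pass (adjusted p = 0.0703).

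Hbegf, on chromosome 18 (36504927 to 36515805), encodes heparin-binding EGF-like growth factor. It was at 72.4 and 59.8 FPKM in 2838c3, 80.6 and 73.2 in 6419c5, with 41.8 and 40.9 in 6499c4. Both libraries of 6499c4 were below the other 4. The log2 difference from 2838c3 was -0.66 (SE 0.08, limma adjusted p = 0.000457) and from 6419c5 -0.88 (SE 0.08, adjusted p = 0.000187). Between 6419c5 and 2838c3 it was 0.22 (95% interval 0.03 to 0.41) and did not pass (adjusted p = 0.0585), while limma-voom called it (0.0226) and without the G-1 library of 2838c3 it was 0.13 (0.41).

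Btc, which encodes betacellulin, a ligand of both EGFR and ERBB4, was highest in 6499c4, the line where Areg, Ereg and Hbegf were lowest. It was at 10.6 and 11.5 FPKM in 2838c3, 11.4 and 15.0 in 6419c5, with 36.8 and 41.2 in 6499c4. Both libraries of 6499c4 stood above all others, by a log2 difference of 1.73 from 2838c3 (SE 0.10, limma adjusted p = 1.49e-05) and 1.5 from 6419c5 (SE 0.10, adjusted p = 4.21e-05). The other two lines overlapped, with a difference of 0.22 (interval -0.01 to 0.46, adjusted p = 0.102). Per length, Ereg was 2.69 to 4.75 times Btc in 2838c3 and 6419c5, and 0.23 to 0.256 times Btc in 6499c4.

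Tgfa, which encodes transforming growth factor alpha, was the most even member and the only 1 of the 8 tested with no call between any pair of lines. It was at 23.6 and 20.7 FPKM in 2838c3, 18.7 and 17.7 in 6419c5, with 15.9 and 19.2 in 6499c4. The libraries of 2838c3 were above the rest, and those of 6419c5 and 6499c4 overlapped. The log2 difference between 6499c4 and 2838c3 was -0.32 (interval -0.61 to -0.04, limma adjusted p = 0.0516), close to the threshold. It passed in 5 alternatives, among them limma-voom (-0.35, adjusted p = 0.00376) and the fit without the G-1 library of 6499c4 (-0.52, 0.0154), but was -0.13 without the vehicle library of 6499c4 (0.415) and -0.19 without that of 2838c3 (0.357). Between 6419c5 and 2838c3 it was -0.27 (adjusted p = 0.0985), which limma-voom called (0.0245), but it was -0.13 without the vehicle library of 2838c3 (0.534). Between 6499c4 and 6419c5 it was -0.06 (interval -0.34 to 0.22).

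Egfr, the receptor that the 6 ligands bind, had the widest range among the receptors. It was at 3.14 and 2.80 FPKM in 2838c3, 12.7 and 10.5 in 6419c5, with 1.68 and 1.38 in 6499c4. No 2 lines overlapped, and the mean of 6419c5 was 7.59 times that of 6499c4. The log2 difference was 1.66 between 6419c5 and 2838c3 (SE 0.14, limma adjusted p = 9.32e-05), -0.65 between 6499c4 and 2838c3 (SE 0.14, adjusted p = 0.005) and -2.31 between 6499c4 and 6419c5 (SE 0.14, adjusted p = 2.24e-05). A pseudocount of 1 understates differences at these low levels. In limma-voom on reads the same differences were 1.96, -0.95 and -2.92. Libraries of 6499c4 held 99 and 71 Egfr reads, and those of 6419c5 held 583 and 368.

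Erbb2 was the most even receptor. It was at 10.3 and 11.1 FPKM in 2838c3, 13.3 and 13.2 in 6419c5, with 19.2 and 20.1 in 6499c4, without overlap between lines. The mean of 6499c4 was 1.84 times that of 2838c3, a log2 difference of 0.82 (SE 0.10, limma adjusted p = 0.000322), and the difference between 6499c4 and 6419c5 was 0.53 (adjusted p = 0.00354). The smaller difference of 0.29 between 6419c5 and 2838c3 (adjusted p = 0.0391) did not pass when any 1 library was left out (adjusted p from 0.0576 to 0.199), without the level filter (0.0512) or with quantile scaling (0.0594).

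Erbb3 was rare outside 6499c4. It was at 0.523 and 0.466 FPKM in 2838c3, 1.11 and 0.914 in 6419c5, with 3.10 and 3.66 in 6499c4, from 27 and 24, 48 and 30, and 171 and 177 reads. The mean of 6499c4 was 6.83 times that of 2838c3, with a log2 difference of 1.55 (SE 0.18, limma adjusted p = 0.000346), and it was 1.12 above 6419c5 (SE 0.18, adjusted p = 0.00233). A pseudocount of 1 understates differences at such levels: in limma-voom on reads the difference from 2838c3 was 2.74. Between 6419c5 and 2838c3 it was 0.43 (adjusted p = 0.0855), 1.05 in limma-voom (adjusted p = 0.009) and 0.043 with quantile scaling (adjusted p = 0.865), so that its size depends on the setting.

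**Figure D2:**
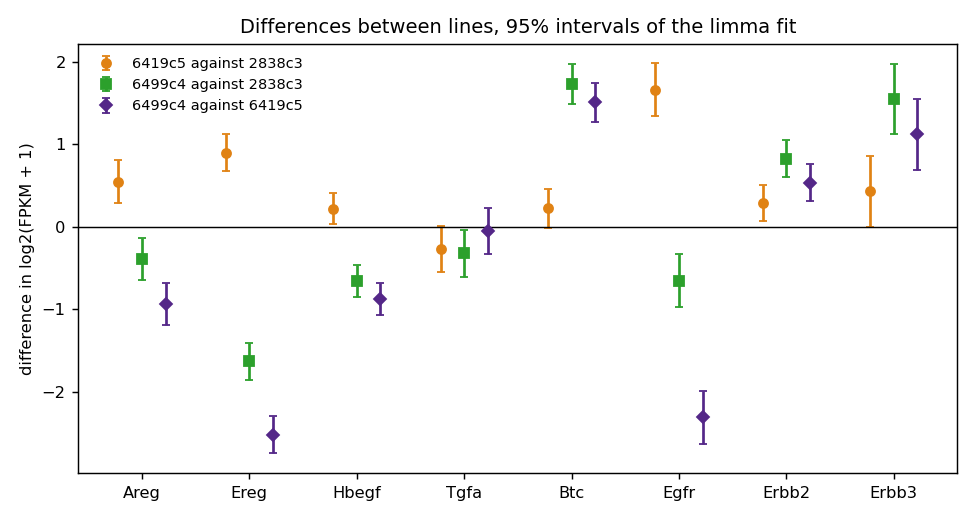
Difference between lines in log2(FPKM + 1) (vertical axis) for the 8 members tested, 1 point per pair of lines with the 95% interval of the limma fit over 6 libraries. Ereg (-2.52) and Egfr (-2.31) are lowest in 6499c4 against 6419c5, Btc (1.5) and Erbb3 (1.12) are higher there, and the Tgfa intervals reach or come near 0.

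The make-up of the ligands and receptors differed between the lines, with Btc and Erbb3 taking larger shares in 6499c4 than in the others and Egfr a larger share in 6419c5. Btc made up 27.0 and 26.0% of the summed ligand FPKM in 6499c4 (vehicle and G-1) but 4.94 to 6.39% in the other 4 libraries, and Ereg 6.91 and 5.97% there but 15.4 to 24.9% elsewhere. Egfr made up 46.7 and 42.7% of the summed receptor FPKM in 6419c5, 22.4 and 19.6% in 2838c3 and 7.0 and 5.47% in 6499c4. Erbb2 made up 73.8 and 77.2% in 2838c3, against 49.2 and 53.6% in 6419c5, with 80.1 and 80.0% in 6499c4. Erbb3 made up 12.9 and 14.6% in 6499c4 and 3.25 to 4.11% elsewhere. Per length, Egfr was 6.0 and 6.01 times Erbb3 in 2838c3 and 11.4 and 11.5 times in 6419c5, whereas in 6499c4 it was 0.542 and 0.376 times Erbb3. Erbb2 led the receptors per length in every library, by 1.05 and 1.26 times Egfr in 6419c5 and 11.4 and 14.6 times in 6499c4. In 6419c5 Egfr had more reads than Erbb2, 583 against 476 under vehicle and 368 against 359 under G-1. The order there thus rests on the gene lengths used, and the Egfr length implied by the values, 6450 bases, met none of its annotated transcript lengths. These shares rest on the same values as the line differences and were not tested.

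**Figure D3:**
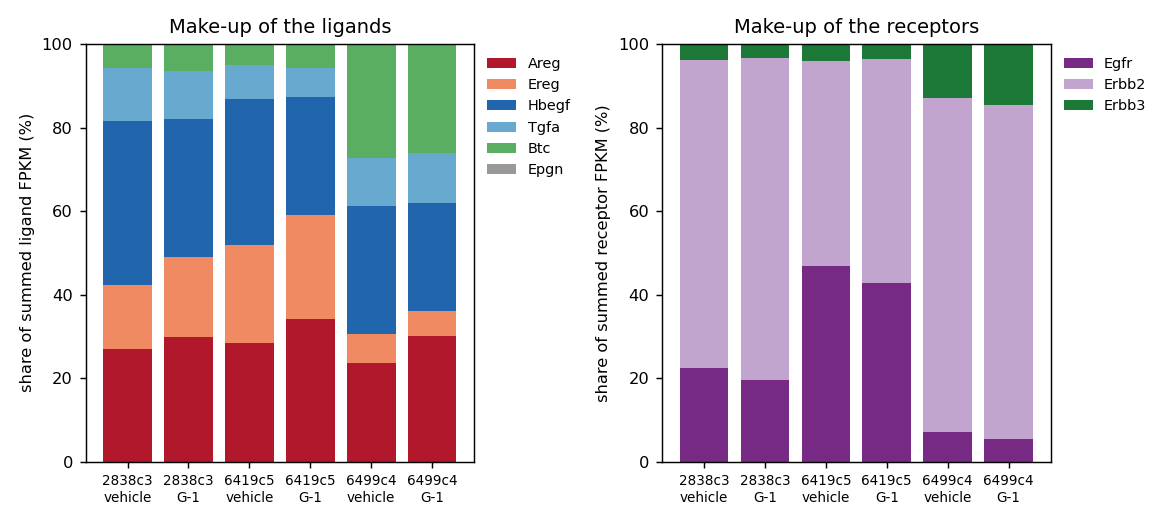
Share of each ligand in the summed FPKM of 6 ligands (left) and of each receptor in that of 3 receptors (right), in percent, 1 bar per library. Btc takes 26.0 to 27.0% in 6499c4, and Areg has a larger share under G-1 than under vehicle in each line.

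No member passed the threshold for G-1 over all genes. In the paired limma fit 0 of 8 members were called, against 0.0279% of genes tested, where 3 genes were called in all. At an unadjusted p under 0.05 there were 2 (Areg and Btc), against 10.1% of genes. Areg, Ereg and Btc were higher under G-1 in all 3 lines, which held for 15.4% of genes, and Hbegf and Egfr lower in all 3, which held for 17.5%. The median absolute log2 difference was 0.16 over the 8 members and 0.09 over all genes. Only in limma-voom on the recovered reads was a member called, Areg, 1 of 8 against 1.53% of genes.

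Areg had the largest mean difference of the members. Its reads under vehicle and G-1 numbered 512 and 551 in 2838c3, then 561 and 578 in 6419c5, then 354 and 460 in 6499c4, in libraries of unequal depth. On the library scale of the FPKM values the G-1 to vehicle ratio was 1.08 in 2838c3 (95% counting interval 0.955 to 1.22), 1.35 in 6419c5 (1.2 to 1.52) and 1.48 in 6499c4 (1.29 to 1.71). The interval of 2838c3 spans 1 and those of the other two lie above it. The mean log2 difference was 0.36 (SE 0.09, 95% interval 0.15 to 0.58, unadjusted p = 0.00444, limma adjusted p = 0.336, n = 3 lines). In limma-voom it was also 0.36, with an adjusted p of 0.0365. Over 11 other settings the difference was 0.27 to 0.49 and the adjusted p 0.0365 to 1, with 1 setting past the threshold.

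Btc and Ereg were the other ligands on the higher side. Btc had ratios of 1.09 in 2838c3 (interval 0.916 to 1.29), 1.32 in 6419c5 (1.09 to 1.59) and 1.12 in 6499c4 (1.02 to 1.22), a mean log2 difference of 0.21 (SE 0.08, limma adjusted p = 0.466). Ereg had ratios of 1.21 (1.11 to 1.31) and 1.19 (1.11 to 1.28) in 2838c3 and 6419c5, but 1.00 (0.86 to 1.17) in 6499c4, where the ligand is scarcest, a mean of 0.17 (SE 0.08, adjusted p = 0.515). Whether the lines differ in their response could not be tested, with 1 library per line and treatment.

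Hbegf and Egfr were on the lower side. Hbegf had ratios of 0.826 in 2838c3 (0.765 to 0.892), 0.908 in 6419c5 (0.835 to 0.987) and 0.979 in 6499c4 (0.888 to 1.08), and a mean log2 difference of -0.15 (SE 0.07, limma adjusted p = 0.516). Egfr had ratios of 0.893 (0.714 to 1.12), 0.828 (0.725 to 0.945) and 0.819 (0.595 to 1.12) in the same order, and a mean of -0.18 (SE 0.11, adjusted p = 0.607). The Egfr interval lies below 1 in 6419c5 and spans 1 in the other two lines.

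Tgfa, Erbb2 and Erbb3 had no common direction. Tgfa was lower under G-1 in 2838c3 (ratio 0.877, interval 0.794 to 0.969) and higher in 6499c4 (1.21, interval 1.08 to 1.35), with 0.948 in 6419c5, so its mean log2 difference was 0.00 (95% interval -0.23 to 0.23). Erbb2 had ratios of 1.07, 0.99 and 1.05 and a mean of 0.05 (interval -0.14 to 0.23). Erbb3 had ratios of 0.891, 0.82 and 1.18 and a mean of 0.00 (interval -0.35 to 0.34). Differences within these intervals cannot be told from none here.

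**Figure D4:**
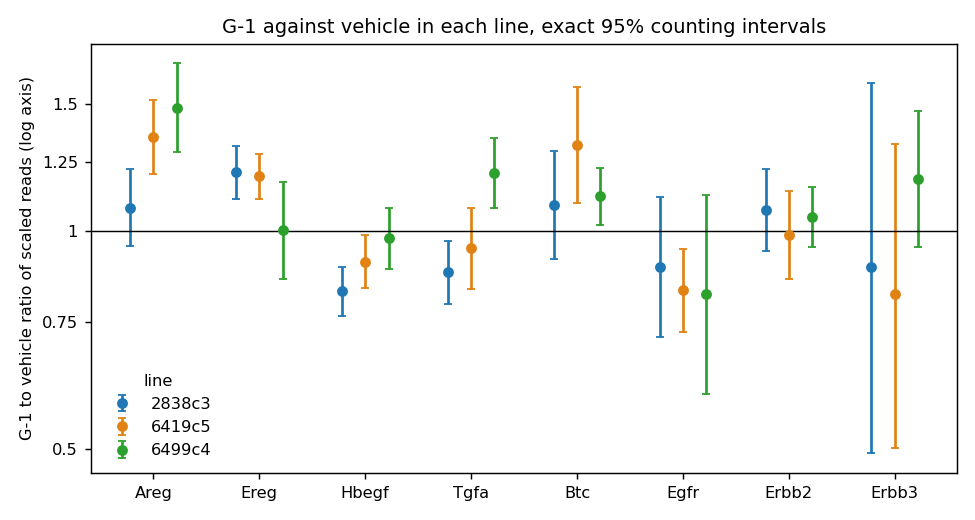
G-1 to vehicle ratio of reads on the library scale (vertical log axis, line at 1) for 8 members in each of the 3 lines, with exact 95% intervals for counting error. Of 24 intervals 7 lie above 1 and 4 below, and Tgfa has 1 of each. The share of such intervals over all genes is not given here, so this count is no measure of a G-1 response. The paired limma fit called 0 of the 8.

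Reads of 1 gene set against another in the same libraries need no library scale or gene length. Areg against Hbegf was 1.31 times as high under G-1 as under vehicle in 2838c3 (95% interval 1.13 to 1.51), 1.49 times in 6419c5 (1.29 to 1.72) and 1.52 times in 6499c4 (1.28 to 1.80). All 3 intervals lie above 1 and cover counting error only, and the pair was chosen from 5 after their values were seen. The direction follows from Areg being higher and Hbegf lower under G-1 in all 3 lines, so it is no separate evidence. The pairs set against Hbegf also share its reads. Of the other ligand pairs, Btc against Hbegf was 1.32 (1.09 to 1.59), 1.45 (1.18 to 1.78) and 1.14 (1.00045 to 1.31) times as high under G-1 in 2838c3, 6419c5 and 6499c4. Its 3 intervals also lie above 1, that of 6499c4 only just. Ereg against Hbegf was 1.46 and 1.31 times as high in 2838c3 and 6419c5 but 1.03 times in 6499c4 (0.854 to 1.23). Areg against Ereg was 0.894, 1.13 and 1.48 times as high, with the interval above 1 in 6499c4 alone. Per length, Hbegf led Areg under vehicle in each line (1.45, 1.23 and 1.29 times). Under G-1 it led in 2838c3 (1.11 times), whereas Areg led in 6419c5 and 6499c4 (Hbegf at 0.826 and 0.854 times Areg). Egfr against Erbb2 was 0.834, 0.837 and 0.782 times as high under G-1, and each of these intervals spans 1.

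Other genes of the pathway were taken from 4 lists, with 42 genes in the table and 38 of them tested. None of the 38 passed for G-1 in limma (smallest adjusted p = 0.392) or in limma-voom, and 3 had an unadjusted p under 0.05, against 10.1% of all genes. Of the 38, 2 were higher in all 3 lines (15.4% of all genes) and 11 lower (17.5%), and their median log2 difference was -0.02. In the list of further ligands and receptors, Erbb4, the fourth receptor, and Nrg3 had 0 reads in every library, and Egf was at 0.0493 to 0.324 FPKM. Nrg1, an ERBB3 and ERBB4 ligand, averaged 23.0 FPKM in 2838c3, 15.4 in 6419c5 and 10.3 in 6499c4, and passed in each pair of lines (limma adjusted p of at most 0.00318). Nrg4, an ERBB4 ligand, averaged 3.60 FPKM in 6499c4 against 0.607 and 0.733 in the other two, and Nrg2 2.29 in 2838c3 against 0.457 in 6419c5 and 1.0 in 6499c4.

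Among 10 genes of ligand release, 9 were tested. Between 6419c5 and 2838c3, 3 were higher and 2 lower, between 6499c4 and 2838c3 2 higher and 3 lower, and between 6499c4 and 6419c5 1 higher and 4 lower. Over all genes the shares higher and lower were 26.2% and 25.3%, 26.6% and 28.9%, and 21.3% and 23.7% in those pairs. The protease gene Adam9 averaged 224, 261 and 97.5 FPKM in 2838c3, 6419c5 and 6499c4. Adam17, whose product sheds most EGFR ligands, averaged 10.5, 14.5 and 15.3 FPKM, and Adam10, the main sheddase of betacellulin, 59.3, 38.5 and 57.6. Rhbdf2, a partner needed for ADAM17 maturation, averaged 13.3, 16.8 and 8.08 FPKM, and Adam15 49.0, 43.2 and 24.4. Adam12 averaged 0.702, 1.63 and 0.316 FPKM and was below the filter.

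Of the 10 adaptors and exchange factors, 4 were higher and 1 lower in 6419c5 than in 2838c3 (26.2% and 25.3% of all genes), 3 higher and 2 lower in 6499c4 than in 2838c3 (26.6% and 28.9%), and 0 higher and 3 lower in 6499c4 than in 6419c5 (21.3% and 23.7%). Crkl averaged 27.9, 41.9 and 18.6 FPKM in 2838c3, 6419c5 and 6499c4, Shc1 63.8, 49.4 and 37.1, Gab2 5.52, 7.18 and 4.67, and Eps8 38.6, 76.1 and 77.9. Grb2, which links the receptors to the exchange factors Sos1 and Sos2, averaged 24.3, 33.7 and 35.6 FPKM.

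The 16 brakes and turnover genes held the widest ranges of line means in the 4 lists, 2.44 for Lrig3 and 2.09 for Cblb on the log2 scale. Between 6419c5 and 2838c3, 5 were higher and 4 lower (26.2% and 25.3% of all genes), between 6499c4 and 2838c3 4 higher and 8 lower (26.6% and 28.9%), and between 6499c4 and 6419c5 2 higher and 5 lower (21.3% and 23.7%). Errfi1, whose product inhibits the EGFR kinase and is induced by its signal, averaged 53.3, 156 and 75.2 FPKM in 2838c3, 6419c5 and 6499c4, highest in 6419c5 (log2 difference from 2838c3 1.53, SE 0.08, limma adjusted p = 1.00e-05). It was also higher in 6499c4 than in 2838c3 (0.49, adjusted p = 0.00122), where Egfr was lower. Cblb, a ubiquitin ligase gene, averaged 5.68, 10.8 and 1.77 FPKM, the same order as Egfr, Ereg and Areg. Socs3 averaged 12.4, 20.3 and 7.37 FPKM in that order of lines. Lrig3 had 0 reads in both libraries of 6419c5, at 1.99 and 4.41 FPKM on average in 2838c3 and 6499c4.

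Genes whose profile over the 6 libraries lay nearest to a member, by the root-mean-square difference of centred log2(FPKM + 1), were taken for the 5 members whose range over the libraries was at least 1 on that scale. They were S100a13 (0.12) and Vat1 (0.13) for Areg, Arhgap40 (0.13) and Crip1 (0.17) for Ereg, Dhrs7 (0.12) and Ak4 (0.12) for Btc, Bdh1 (0.07) and Grem1 (0.11) for Egfr, and Fes (0.05) and Rusc1 (0.07) for Erbb3. None of them is a member or in the 4 lists, and with 3 lines many genes share an order.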

How the data were processed

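RNA was sequenced in 6 libraries. The authors deposited FPKM values for 24421 symbols. The submitters' processing notes list STAR and DESeq2 without a role. Build, annotation, strandedness and counting rule are not given in the sources here. Each gene's values are multiples of 1 step, and whole reads were recovered for all 15712 genes above 0, within 0.001 reads. Counts that share a divisor come out too low by it. Among genes with 1 annotated transcript length, 157 were raised to meet that length, Erbb3 (by 3 times) among them. Ratios of G-1 to vehicle carry exact 95% binomial intervals, which cover counting error only.

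Tests used limma 3.58.1 (R 4.3.3) on log2(FPKM + 1) for 10748 genes averaging 1 FPKM or more, with line and treatment as terms and a variance trend (2 residual and 5.35 prior degrees of freedom), two-sided, with Benjamini-Hochberg adjustment and a threshold of 0.05. The line pairs the libraries by the labels. After centring each gene within its treatment, libraries of the same line correlated at 0.906, 0.871 and 0.882. The fit and the read recovery were tested on simulated data. The changes planted for the fit were larger than any G-1 difference of a member here. How the fit performs at such smaller sizes was not tested. The members and lists were chosen with earlier results of these data known, so no p is adjusted over the members alone. All members are named. Of the lists, genes past the threshold for G-1 and up to 4 per list with the widest range of line means are named, and Adam17, Adam10, Grb2, Egf, Erbb4 and Nrg3 were added after their values were seen.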

Additional observations from a re-analysis of the deposited data

Results flagged for a closer look

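Tgfa differed in direction between lines under G-1. The difference in log2(FPKM + 1), G-1 minus vehicle, was 0.25 in 6499c4 and -0.18 in 2838c3, and the counting interval of each ratio left out 1. With 1 library per line and treatment the difference between the lines was not tested. Treatment groups hold 3 libraries, too few for a check of single libraries that stand apart.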

How the results depend on the processing

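The number of genes called for G-1, 3 in the reported fit (1 higher, 2 lower), was 1 with a pseudocount of 0.1, 0 without the level filter (1152 at an unadjusted p under 0.05), 6 with a filter of 5 FPKM (5 higher, 1 lower), 0 without a variance trend (937), 0 without the line as replicate block (25 at an unadjusted p under 0.05), and 0 to 11 when 1 line was left out (0 without 6419c5, with 1035 at an unadjusted p under 0.05, and 11 without 6499c4). In limma-voom on recovered reads it was 164 (109 higher, 55 lower), with 1 member (Areg). The correction for GC content and length, added after the data were seen, gave 2 (1 higher, 1 lower). Leaving out 1 library, the calls between 6419c5 and 2838c3 numbered 3430 to 5677 against 5533, lowest without the vehicle (3430) or G-1 (3590) library of 6419c5, with 2 to 5 members against 4 (2 without the G-1 library of 6419c5). Limma-voom called 7 members there. Between 6499c4 and 6419c5 they numbered 2612 to 4708 against 4836, lowest without the G-1 (2612) or vehicle (3003) library of 6419c5.

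Of 420 member values under alternatives, 384 kept direction and side of the threshold, 14 lost and 14 gained a call, and 8 changed sign, each of a difference that did not pass. Tgfa under G-1 was -0.0039 in limma-voom and -0.13 to 0.090 with 1 line left out (negative without 6499c4). Erbb3 under G-1 was 0.11 in limma-voom, 0.025 with the GC and length correction, and -0.099 to 0.066 with 1 line left out (0.021 without 2838c3, 0.066 without 6419c5). Tgfa between 6499c4 and 6419c5 was 0.015 with that correction and -0.25 to 0.13 with 1 library left out (0.13 without the vehicle library of 6499c4). The cause was not tested. The mean share of Areg among the ligands was 28.9%, or 42.5% leaving out Hbegf, and that of Egfr among the receptors 24.0%, or 69.6% leaving out Erbb2, by construction. Depth limits Epgn and Erbb3 most.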
